A study of Mus musculus with 6 samples.

Results

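Seven-transmembrane receptors that let macrophages sense chemokines and complement fragments were followed in RAW264.7 cells, a mouse macrophage-like tumour line. The group holds 7 genes, chosen by name: the chemokine receptors Ccr1, Ccr2, Cx3cr1 and Cxcr4, the chemokine-receptor-like gene Ccrl2, and the anaphylatoxin receptors C5ar1 and C3ar1. All 7 were among the 25124 genes of the deposited expression table. Groups of 3 libraries each were compared, one labelled knockout for E4BP4 (the product of Nfil3, a bZIP repressor) and one labelled control. Cells of both groups were untreated, had passed fewer than 15 passages and grew in medium with 25 mM glucose. Each library was made from polyadenylated RNA of 200 ng total RNA. The sources used here do not say how the cells were edited, whether they are 1 clone or many, or whether each replicate was its own culture. A p-value therefore covers only the spread among these libraries, some of which may be technical.

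Chemokine receptors couple to inhibitory G proteins and turn a gradient of a secreted chemokine into directed movement. CCR2 draws monocytes towards CCL2, CCR1 responds to CCL3 and CCL5, CX3CR1 binds the membrane-anchored chemokine fractalkine, and CXCR4 binds CXCL12. CCRL2 is atypical: it binds chemerin and presents it to other cells without the usual signalling. The anaphylatoxin receptors C5AR1 and C3AR1 detect the small fragments released when complement components C5 and C3 are cleaved.

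The receptors did not move together. Under the knockout label Cx3cr1 was 4.45-fold lower, C3ar1 was 1.37-fold lower and C5ar1 was 1.12-fold lower, while Ccrl2 was 1.62-fold and Cxcr4 1.30-fold higher. Ccr2 did not pass the test, and Ccr1 was too low to be tested. Of the 6 receptors tested, 5 passed: 3 lower and 2 higher. Of all 11257 tested genes, 23.4% were lower, 26.7% were higher and 50.1% passed in either direction. In the 5 receptors that passed the groups did not overlap, which held for 58.5% of all tested genes. With that background a share of 5 in 6 says little about the receptors as a group, and their median difference (−0.05 on the log2 scale, against 0.02 for all tested genes) hides changes in opposite directions. The test was limma on log2(TPM + 1), where TPM is the deposited transcript level, scaled by transcript length and library size. Genes were tested where at least 3 of the 6 libraries reached 1 TPM, and called at a Benjamini-Hochberg adjusted p under 0.05 over all tested genes.

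The promoters of C3ar1 and Cxcr4 are shown first, because these 2 receptors moved in opposite directions and have upstream stretches clear of annotated exons. Both are printed 5′ to 3′ on the gene's strand (minus in both cases) from RefSeq's GRCm38.p6 promoter table, without bases that GENCODE M21 places in an exon. Capitals mark CG dinucleotides.
C3ar1 (chr6:122856162-122856407): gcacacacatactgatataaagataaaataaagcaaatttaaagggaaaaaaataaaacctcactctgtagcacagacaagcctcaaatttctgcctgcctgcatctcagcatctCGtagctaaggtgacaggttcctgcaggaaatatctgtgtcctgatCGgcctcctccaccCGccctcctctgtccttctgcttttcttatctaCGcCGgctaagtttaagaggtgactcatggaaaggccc
Cxcr4 (chr1:128592300-128592549): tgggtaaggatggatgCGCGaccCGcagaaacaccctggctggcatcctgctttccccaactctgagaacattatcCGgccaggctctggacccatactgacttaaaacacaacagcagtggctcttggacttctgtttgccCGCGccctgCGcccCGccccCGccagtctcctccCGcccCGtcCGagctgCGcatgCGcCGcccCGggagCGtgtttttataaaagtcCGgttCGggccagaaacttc
In the 250 bases before the start, Cxcr4 holds 19 CG dinucleotides and C3ar1 holds 5, where the median over promoters of tested genes is 16. The same upstream stretch holds 4 in Cx3cr1, 2 in C5ar1, 1 in Ccr2, 1 in Ccr1 and 5 to 7 in the 3 entries of Ccrl2. Cxcr4 was thus the CG-rich member, and the other 6 lay below the median of tested genes.

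E4BP4 binds the D-box, written TTATGTAA or TTACGTAA. Neither word occurred on either strand of the 9 promoter entries of the 7 receptors, each 250 bases before to 50 after a start. Of all 32851 promoter entries of that length, 1.06% held one. A word with at least 7 of the 8 letters of either D-box occurred in 17.4% of all entries. Among the 7 receptors it occurred in Ccrl2 only. It is shown in capitals within 30 bases of the minus strand, upstream of 2 of the 3 starts listed for Ccrl2.
Ccrl2 (chr9:111057312-111057341): actcagggaacTTATGTCAgaagccagggg
Other macrophage-related words were searched the same way. The AP-1 word TGACTCA, searched with TGAGTCA, was found 22 bases before the start of C3ar1, within the stretch shown above, and occurred in 5.20% of all entries. The PU.1 word GAGGAAGT, the ATF4 word TGATGCAA and the C/EBP words TTGCGCAA, TTGCGTAA, TTGTGCAA and TTGTGTAA were in no receptor's window. A match or its absence describes only these letters in these windows.

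Levels spanned several orders of magnitude among the receptors, with the anaphylatoxin receptors far above the chemokine receptors. In the controls the mean order was C3ar1, C5ar1, Cxcr4, Cx3cr1, Ccrl2, Ccr2 and Ccr1, and no pair of neighbours in that order overlapped between libraries. Under the knockout label C3ar1 overlapped with C5ar1, and Ccr2 overlapped with Cx3cr1, which stood at rank 4 in the controls and at rank 6 here. C3ar1 and C5ar1 together made up 91.4% to 91.6% of the summed TPM of the 7 receptors in the controls and 90.2% to 90.4% under the knockout label. The summed TPM of the other 5 receptors was 38.5 to 41.1 in the controls and 35.6 to 38.5 under the knockout label. Within that sum Cx3cr1 was lower and Cxcr4 and Ccrl2 were higher. In bulk RNA, fewer expressing cells and less RNA per cell cannot be told apart.

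**Figure D1:**
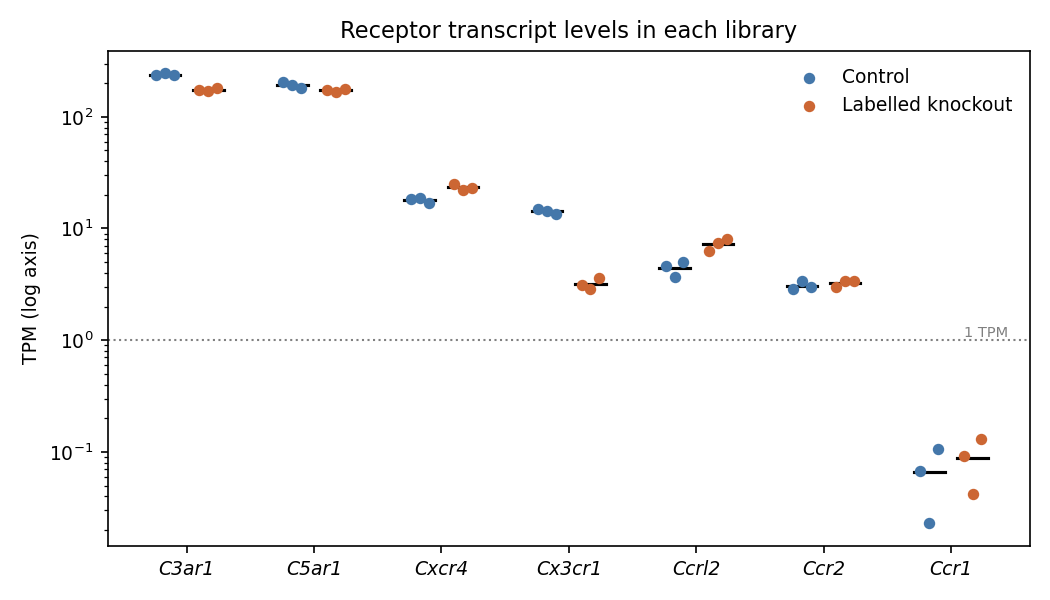
TPM of the 7 receptors in each library on a log axis, with points for single libraries (blue, 3 controls; orange, 3 libraries labelled knockout), black lines for group means and a dotted line at 1 TPM. C3ar1 and C5ar1 lie at 166 TPM or more in every library, Cx3cr1 separates the groups most widely, and every Ccr1 value is at or below 0.130 TPM.

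Cx3cr1, the fractalkine receptor gene, fell most. It measured 15.0, 14.2 and 13.6 TPM in the 3 controls and 3.10, 2.89 and 3.64 TPM in the 3 libraries labelled knockout. All 3 controls lay far above all 3 libraries labelled knockout, with no overlap. The means were 14.3 ± 0.713 and 3.21 ± 0.387 TPM (SD, n = 3 each), from 675 to 886 and from 179 to 222 reads recovered per library. The log2 difference was −1.86 (SE 0.0774, 95% interval −2.04 to −1.69, limma adjusted p = 1.28e-07), larger in size than that of 99.7% of tested genes. Only 1.19% of tested genes passed with a fall of at least 1 on this scale, and Cx3cr1 was the only one of the 6 tested receptors to do so. The authors' deposited table gave a log2 fold change of −2.17 for it. Its transcript (NM_009987) occupies chromosome 9, 120048683 to 120068296, minus strand (mm10), and GENCODE M21 gives the transcript with those ends 2 exons, with the coding sequence in exon 2.

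Its closest genomic neighbours were silent in both groups, so the fall could not be followed into them. Ccr8, a chemokine receptor gene 23.8 kb away, was listed at 0 in all 6 libraries, and Xirp1, a muscle actin-binding protein gene 25.1 kb away on the other side, did not exceed 0.078 TPM. The 627 tested genes of chromosome 9 had a median log2 difference of −0.01. Among all tested genes, the 3 whose 6 values of log2(TPM + 1), taken relative to the control mean, lay closest to those of Cx3cr1 were Ly6e, Ldhb and Hpse, at root mean square distances of 0.04, 0.07 and 0.10. Ly6e, which encodes a GPI-anchored protein of the Ly6 family on chromosome 15, measured 299.9, 286 and 284 TPM in the controls and 78.8, 74.0 and 82.4 TPM under the knockout label. Its log2 difference was −1.88. Ldhb and Hpse differed from Cx3cr1 in TPM: they lay at 2.64 to 3.46 TPM in the controls and at 0 to 0.105 TPM under the knockout label. They were thus nearly lost, a larger fall in proportion than that of Cx3cr1. Their log2 differences (−1.89 and −1.96) lay near that of Cx3cr1 because the pseudocount of 1 shrinks the change of low genes. With groups this far apart, closeness over 6 libraries mostly reflects the size of the difference on this scale.

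C3ar1, the receptor gene for the complement fragment C3a, was the most abundant of the 7 and fell by a smaller, tightly measured amount. It measured 235, 245 and 235 TPM in the controls and 173, 169 and 180.4 TPM under the knockout label. Every control lay above every library labelled knockout, where 58.5% of all tested genes had no overlap between groups. The means were 238 ± 6.18 and 174 ± 5.70 TPM (SD, n = 3 each), resting on 11456 to 15973 reads per library. The log2 difference was −0.45 (SE 0.0381, 95% interval −0.54 to −0.36, limma adjusted p = 1.21e-05), beside −0.47 in the authors' deposited table. C3ar1 (NM_009779) occupies chromosome 6, 122847140 to 122856157, minus strand (mm10), with 2 exons and its coding sequence in exon 2. Its flanking genes did not pass: Foxj2, a forkhead factor gene 1.77 kb from its 3′ end, had a log2 difference of −0.14 (limma adjusted p = 0.0970) and Necap1, an endocytosis gene, one of 0.02 (limma adjusted p = 0.622).

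C5ar1, the receptor gene for C5a, the most potent of the anaphylatoxins, was only marginally lower. It measured 205, 195 and 179.6 TPM in the controls and 176, 166 and 176 TPM under the knockout label. The lowest control stood just above the highest library labelled knockout, so the groups did not overlap, which was true of 58.5% of all tested genes. The means were 193 ± 12.6 and 173 ± 5.51 TPM (SD, n = 3 each), a log2 difference of −0.16 (SE 0.0501, 95% interval −0.27 to −0.05, limma adjusted p = 0.0252). The call was lost without control replicate 1 (−0.11, adjusted p = 0.0606), without control replicate 2 (−0.15, 0.0603) and without replicate 2 of the libraries labelled knockout (−0.13, 0.0928), and also with no filter on low values (0.0705) or no mean-variance trend in limma (0.0598).

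C5ar1 lies on chromosome 7 (minus strand, 16246743 to 16259540 in mm10; NM_007577; 3 exons in GENCODE M21, coding in exons 2 and 3), a chromosome on which most called genes were higher under the knockout label. There 520 of 878 tested genes were higher and 73 lower, with a median log2 difference of 0.24. With that median subtracted from the genes of chromosome 7, C5ar1 had a log2 difference of −0.40 (limma adjusted p = 0.000156). That adjusted p takes the median as a known value, without error of its own. Whether the shift of the chromosome holds at C5ar1 was not tested. C5ar2, which encodes the second C5a receptor and lies 4.41 kb away, measured 1.09, 1.33 and 1.30 TPM in the controls and 1.57, 0.990 and 1.36 TPM under the knockout label. The groups of C5ar2 overlapped, and it did not pass (log2 difference 0.04, limma adjusted p = 0.823). On the other side Inafm1 was lower, with a log2 difference of −0.19 (limma adjusted p = 0.0404).

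The levels of the anaphylatoxin receptors were also set against each other within each library. The ratio of C3ar1 to C5ar1 TPM within a library was 1.15, 1.26 and 1.31 in the controls and 0.986, 1.02 and 1.02 under the knockout label. All 3 controls had more C3ar1 than C5ar1 transcript, and under the knockout label the levels were nearly equal. A 2-sided exact permutation test of the log2 ratio gave p = 0.1, the smallest that 3 against 3 libraries allow (adjusted p = 0.133 over 4 ratios). No such ratio could pass in this design. Of the others, that of Ccrl2 to Cxcr4 overlapped between groups, at 0.252, 0.197 and 0.295 in the controls and 0.248, 0.335 and 0.347 under the knockout label (exact permutation p = 0.3, adjusted p = 0.3). That of Cxcr4 to Cx3cr1 was 1.23, 1.33 and 1.24 in the controls and 8.11, 7.61 and 6.40 under the knockout label, without overlap (exact permutation p = 0.1, adjusted p = 0.133).

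Cxcr4, the receptor gene for CXCL12, which holds leukocytes in the bone marrow, rose. It measured 18.5, 18.8 and 16.9 TPM in the controls and 25.1, 22.0 and 23.3 TPM under the knockout label. Each library labelled knockout lay above each control. The means were 18.1 ± 1.04 and 23.5 ± 1.58 TPM (SD, n = 3 each), from 405 to 526 and 669 to 701 reads. The log2 difference was 0.36 (SE 0.0613, 95% interval 0.22 to 0.50, limma adjusted p = 0.000989), as it was in the authors' deposited table (0.36). Cxcr4 (NM_009911) occupies chromosome 1, 128588199 to 128592299, minus strand (mm10), with coding sequence in both of its 2 exons. Dars, an aminoacyl-tRNA synthetase gene 171 kb away, was also higher (log2 difference 0.22, limma adjusted p = 0.000353), and Thsd7b on the far side did not exceed 0.021 TPM.

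The atypical receptor gene Ccrl2 rose from a low level. It measured 4.66, 3.72 and 4.98 TPM in the controls and 6.23, 7.37 and 8.07 TPM under the knockout label. The groups did not overlap, but the libraries within each were more spread than for the abundant receptors. The means were 4.45 ± 0.658 and 7.22 ± 0.926 TPM (SD, n = 3 each), with 99 to 129 and 169 to 231 reads per library. The coefficient of variation was 14.8% in the controls, where counting error alone would give about 9.34%. The log2 difference was 0.59 (SE 0.109, 95% interval 0.35 to 0.84, limma adjusted p = 0.00148). On the authors' deposited log2 values, whose transform no source used here states and which rest on another transcript of Ccrl2, the same fit gave 0.31 (limma adjusted p = 9.54e-05).

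Ccrl2 occupies chromosome 9, 111054834 to 111057244, minus strand (mm10), for the transcript of the TPM table (NM_001302377). The authors' second table used another transcript, NM_017466, and gave a log2 fold change of 0.64. GENCODE M21 places the coding sequence of Ccrl2 in the last exon of each transcript in its basic set. Lrrfip2, a leucine-rich repeat protein gene 60.9 kb away, rose by a similar amount (log2 difference 0.53, limma adjusted p = 9.93e-05), whereas Ltf, which encodes lactoferrin and lies 12.1 kb away on the other side, was listed at 0 in all 6 libraries.

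Ccr2, the CCL2 receptor gene and a hallmark of inflammatory monocytes, showed no difference that passed. It measured 2.87, 3.37 and 2.97 TPM in the controls and 2.97, 3.37 and 3.41 TPM under the knockout label. The groups overlapped over most of their range. The log2 difference was 0.06 (95% interval −0.13 to 0.25, limma adjusted p = 0.566), from 141 to 203 reads per library, so a difference as large as that of Ccrl2 or C3ar1 lay outside the interval. Ccr2 (NM_009915) occupies chromosome 9, 124102183 to 124109140, plus strand (mm10). The ratio of Ccr2 to Cx3cr1 TPM, which contrasts markers of the inflammatory and the patrolling type of monocyte, was 0.191, 0.237 and 0.219 in the controls and 0.958, 1.17 and 0.938 under the knockout label. The groups lay well apart (2-sided exact permutation p = 0.1, adjusted p = 0.133), while Ccr2 itself did not pass.

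Ccr1, a receptor gene for CCL3 and CCL5, was hardly detected in either group. It was listed at 0.067, 0.023 and 0.107 TPM in the controls and at 0.092, 0.042 and 0.130 TPM under the knockout label, from 1 to 4 and 2 to 6 reads per library. No difference was detectable at this depth. Ccr1 (NM_009912) occupies chromosome 9, 123962126 to 123968692, minus strand (mm10), in a cluster of chemokine receptor genes: Ccr1l1 was listed at 0 throughout, Ccr3 reached 0.020 TPM in 1 library and Xcr1 did not exceed 0.074 TPM. Receptors of this cluster are related in sequence, and the sources used here do not say how reads matching several genes were assigned.

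**Figure D2:**
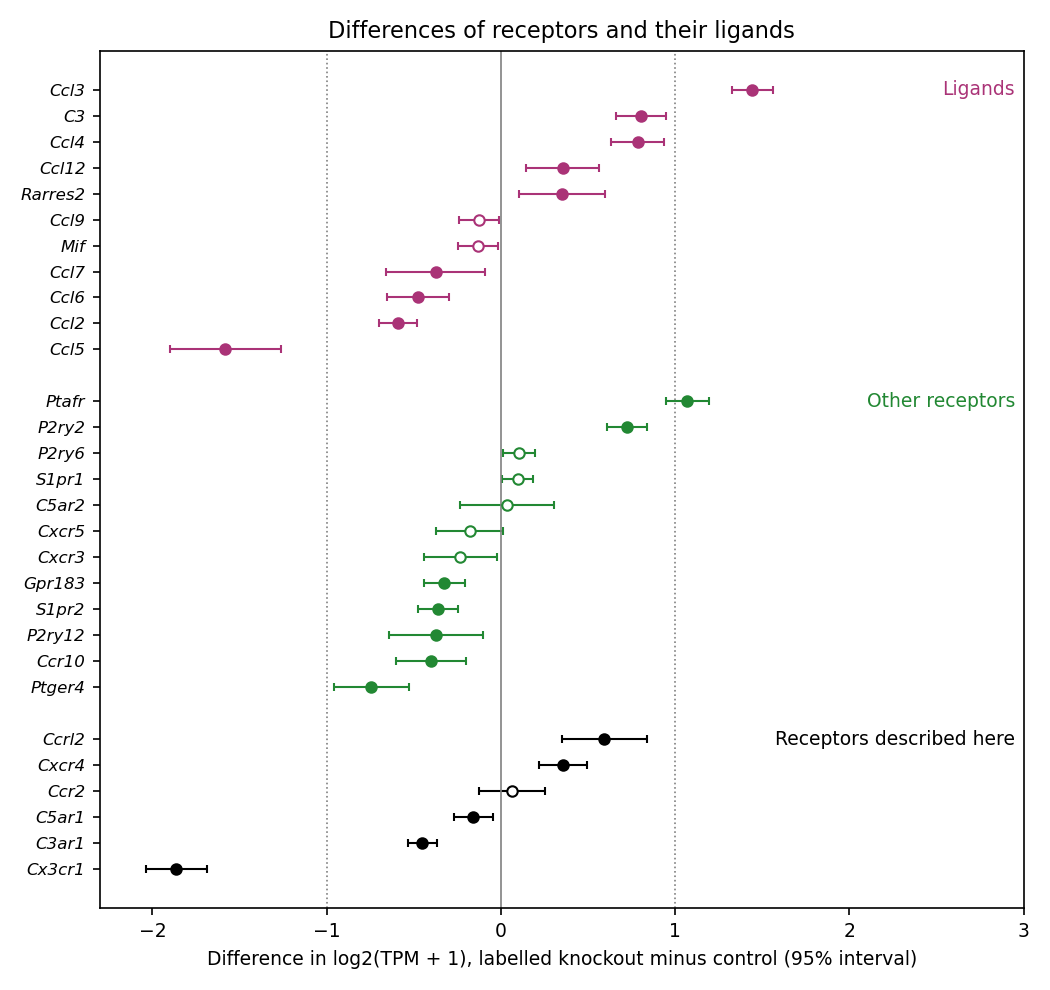
Differences in log2(TPM + 1), labelled knockout minus control, with 95% intervals from limma for the 6 tested receptors described here (black), 12 other receptors (green) and 11 ligands (magenta); filled points passed at an adjusted p under 0.05, and dotted lines mark a difference of 1. Cx3cr1 stands at −1.86, outside all other receptors, and ligands spread from −1.58 for Ccl5 to 1.44 for Ccl3.

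The rest of the receptor family was mostly absent. Of 39 other receptors for chemokines, complement, formyl peptides, leukotrienes, nucleotides and related lipids in the table, 8 were listed at 0 in all libraries, 19 were above 0 but below the filter and 12 were tested. Of the 12, 5 were lower, 2 higher and 5 not passing, with a median log2 difference of −0.21, so that 7 passed, a share near the 50.1% of all tested genes. Ptafr, the receptor gene for platelet-activating factor, rose from 13.0 ± 0.802 to 28.5 ± 0.921 TPM, and P2ry2, which encodes a receptor for extracellular ATP and UTP, rose from 7.08 ± 0.103 to 12.3 ± 0.254 TPM (SD, n = 3 each). P2ry2 lies on chromosome 7, and its log2 difference of 0.72 became 0.48 with that chromosome's median subtracted. Ptger4, a prostaglandin E2 receptor gene, fell from 14.9 ± 0.740 to 8.58 ± 1.46 TPM. S1pr1, a sphingosine-1-phosphate receptor gene and the most abundant of the 12, did not pass (61.3 ± 1.67 and 65.6 ± 2.17 TPM, limma adjusted p = 0.0773). Besides the receptors described above, the chemokine receptor genes tested were Ccr10, which was lower (log2 difference −0.40, limma adjusted p = 0.00435), and Cxcr3 and Cxcr5, which did not pass (adjusted p = 0.0606 and 0.109).

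Ligands of these receptors were made by the same cells only in part, and they moved both ways. Of 15 ligand genes 11 were tested, 5 higher, 4 lower and 2 not passing, with a median log2 difference of −0.13. The background over all tested genes was 26.7% higher and 23.4% lower. With limma-voom, 4 ligand genes were higher and 6 lower. In the controls Mif and Ccl9, a ligand gene of Ccr1, were the most abundant of the 11, with Ccl9 at 341 ± 22.2 TPM and not passing (limma adjusted p = 0.0606). Ligand genes of Ccr1 had the widest change in each direction among the 11: Ccl3 rose from 188 ± 14.8 to 513 ± 8.20 TPM, while Ccl5 fell from 5.25 ± 0.873 to 1.09 ± 0.366 TPM (SD, n = 3 each). Ccl4 and C3, the source of the C3AR1 ligand, rose 1.73-fold and 1.79-fold. Ccl2, the main ligand gene of Ccr2, fell 1.51-fold from 232 ± 14.8 TPM. C3 thus rose as C3ar1 fell, and Ccl2 fell while Ccr2 did not pass. The classical ligand genes of Cx3cr1, Cxcr4 and C5ar1 were near absent: Cx3cl1 did not exceed 0.124 TPM, Cxcl12 0.035 TPM and Hc, which encodes complement C5, 0.037 TPM. Mif, which encodes a cytokine that also binds CXCR4, was by contrast abundant, at 348 ± 26.4 TPM in the controls and 317 ± 1.94 TPM under the knockout label, and did not pass (log2 difference −0.13, limma adjusted p = 0.0591). The chemerin gene Rarres2, whose product CCRL2 binds, was called higher, with a log2 difference of 0.35 (limma adjusted p = 0.0241). That call rested on 36 to 65 reads per library. The authors' own comparison gave it a log2 fold change of 0.36 with an adjusted p of 0.296, which did not pass. In that comparison Ccl9 and Mif did pass as lower (adjusted p = 0.0148 and 0.0344). The ligand genes Ccl7, called lower here, and Ccl12, called higher here, did not pass in it (adjusted p = 0.103 and 0.0824).

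Genes of G proteins and of proteins that switch receptors off moved in both directions. Of 23 tested genes 10 were lower, 4 higher and 9 not passing, with a median log2 difference of −0.11. Over all tested genes 23.4% were lower and 26.7% higher, and the difference between the list and that background was not tested. Rgs1, which encodes a regulator that speeds the shut-off of inhibitory G proteins and dampens chemokine responses, rose 5.87-fold from 12.6 ± 0.701 to 73.8 ± 3.04 TPM. Rgs18, of the same family, fell 2.15-fold from 8.31 ± 0.316 to 3.86 ± 0.327 TPM. Gnai2, the main inhibitory G protein alpha subunit gene of leukocytes and the most abundant of the 23, fell 1.20-fold, from 524 ± 7.65 to 438 ± 5.67 TPM (limma adjusted p = 0.000142). The 4 that rose included 3 G protein alpha subunit genes (Gna13, Gnaq and Gnai3) with log2 differences of 0.16, 0.17 and 0.11. These small rises were not stable: 1 of the 23 genes was higher without control replicate 1, knockout-labelled replicate 2 or knockout-labelled replicate 3, and 2 were without control replicate 3 or knockout-labelled replicate 1. Without a filter on low values, or without the mean-variance trend, 1 was higher. With upper-quartile scaling or the replicate block 3 were higher. The count stayed at 4 with a pseudocount of 0.1, a minimum of 5 TPM, the deposited log2 values or the chromosome 7 median subtracted. It was 5 with limma-voom or without control replicate 2.

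Steps downstream of the receptors also changed both ways. Of 32 tested genes of migration signalling, 17 were lower, 7 higher and 8 not passing, with a median log2 difference of −0.14. The background was again 23.4% lower and 26.7% higher among all tested genes, and the list was not tested against it. Itgb2, the beta-2 integrin subunit gene through which chemoattractants trigger adhesion, fell from 166 ± 8.42 to 108 ± 1.86 TPM, and Tiam1, an activator of Rac, fell from 3.81 ± 0.696 to 2.21 ± 0.281 TPM (SD, n = 3 each). Plcb2, a phospholipase C gene activated by G protein beta-gamma subunits, rose 2.81-fold from 3.58 ± 0.236 TPM. Coro1a, an actin regulator gene on chromosome 7 and the most abundant of the 32, rose with a log2 difference of 0.49, or 0.25 with that chromosome's median subtracted. Of all tested genes 2.25% passed with a difference of at least 1 in either direction, and Rgs1 and Plcb2 were the only such genes among these G protein and signalling lists.

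**Figure D3:**
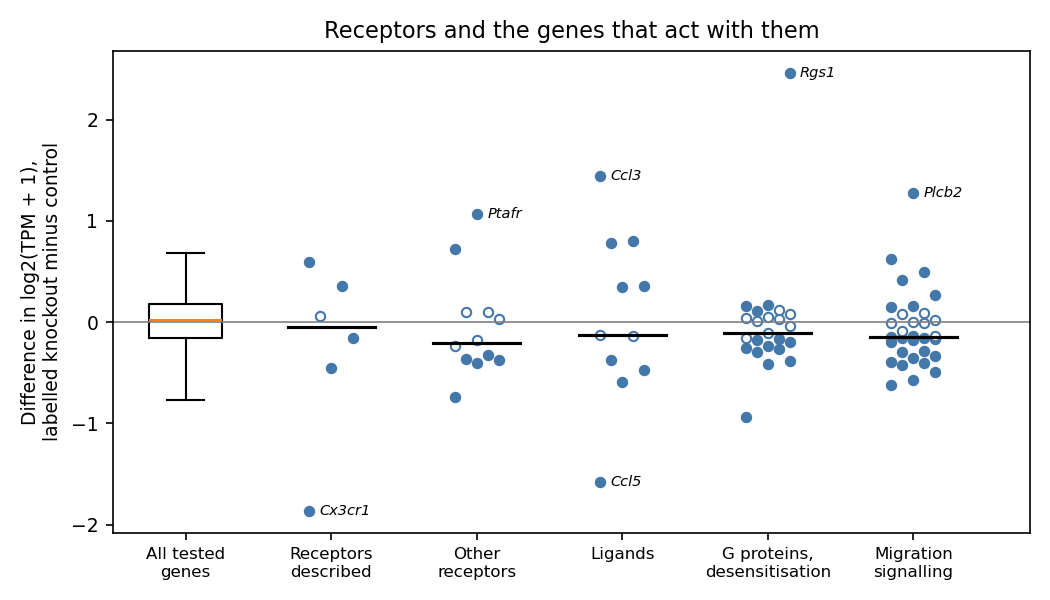
Differences in log2(TPM + 1), labelled knockout minus control, of tested genes in each list; filled points passed at an adjusted p under 0.05, black lines are list medians, and the box for all 11257 tested genes spans the quartiles with whiskers at the outer 2.5% on each side. All list medians lie slightly below 0 (−0.05 to −0.21), and genes past a difference of 1 are named.

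Facts of the whole data set that touch these results were as follows. Nfil3, the targeted gene, ran against the knockout label: it averaged 102.8 ± 2.65 TPM under that label and 30.1 ± 0.803 TPM in the controls (SD, n = 3 each). Directions are therefore those of the labels. The headers gave 18.4 to 21.7 M tags (M, mega) for the controls and 21.7 to 23.3 M under the knockout label. All 10 macrophage markers found in the table were tested. Among them Cd68 stood at 437 to 617 TPM and Adgre1, which encodes F4/80, at only 1.31 to 3.08 TPM. Of the 10, 5 fell, 3 rose and 2 did not pass, where 50.1% of all tested genes passed. The widest changes in each direction were those of Fcgr1, from 40.2 to 11.8 TPM, and Lyz2, from 1069 to 2218 TPM. Summed markers of B, NK, fibroblast and epithelial cells stayed at or below 1.08 TPM in every library, with Gzma, Lum and Krt8 at 0. The summed neutrophil markers were 4.51 to 6.04 and 5.17 to 6.19 TPM, nearly all S100a8, with Mpo and S100a9 at 0. The summed T cell markers were 2.66 to 2.78 and 4.13 to 4.22 TPM, nearly all Lck, with Cd3g at 0 and Cd3e at or below 0.091 TPM. The nuclear RNA Neat1 was higher (log2 difference 1.23) and Malat1 lower (−0.34) under the knockout label, and whether RNA handling had a part in the receptor differences was not tested.

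**Figure D4:**
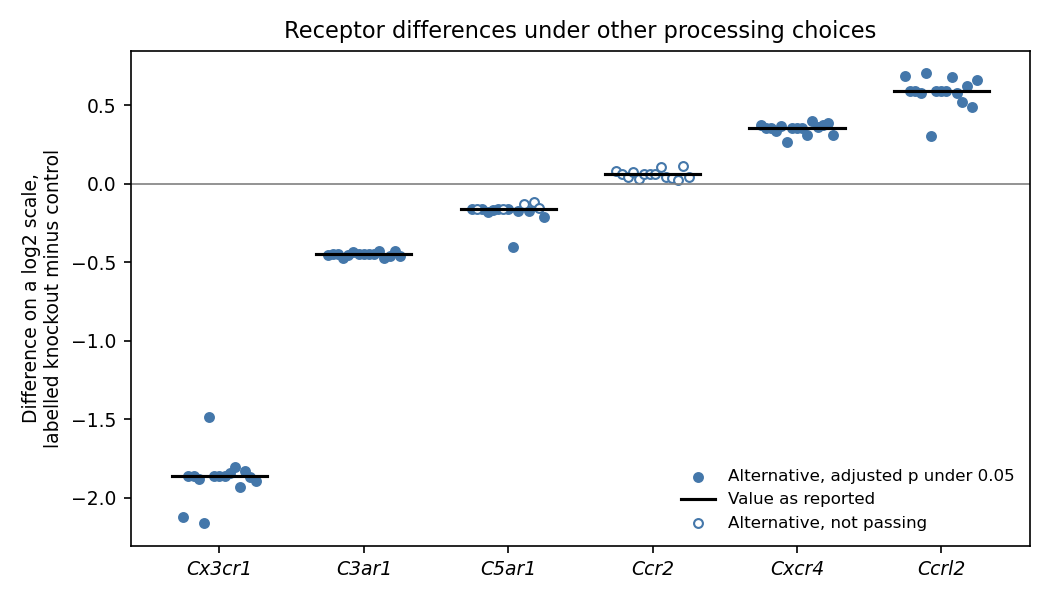
Log2 difference of the 6 tested receptors as reported (black lines) and under up to 15 other processing choices (points; filled where the adjusted p was under 0.05). No receptor changes direction, C5ar1 is the only called receptor with open points, and the isolated C5ar1 value of −0.40 is the one with the median of chromosome 7 subtracted. Choices that act only on the filter, the trend or the block cannot move a value.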

How the data were processed

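Polyadenylated RNA was measured in 6 libraries, 3 per group. Per the submitters' processing notes, STAR 2.7.5a, HOMER 4.11.1, bcl2fastq, DESeq2 and the mm10 build were used, with no role or order stated. The authors deposited TPM values with 1 RefSeq transcript per gene, and a second deposited table of log2 values with the authors' own log2 fold changes and p-values, under a header that reads WT vs. TG; TG was read as the group labelled knockout. No source used here states the transform behind the log2 values.

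Genes with at least 1 TPM in at least 3 libraries were compared on log2(TPM + 1), a pseudocount of 1, with limma 3.58.1 (mean-variance trend, no covariates, 2-sided) in R 4.3.3. Such differences understate the change of low genes. Ratios given as fold are of mean TPM. Exact permutation tests used SciPy 1.17.1. TPM multiplied by transcript length fell within 0.1 of whole multiples of 1 read for 100% of the values checked; the recovered reads (15615639 to 19867732 per library) gave the depth behind each value and a limma-voom alternative, and cover counting error only. A chi-square comparison between replicates gave 1.74 to 5.50 per degree of freedom, so libraries of a group differed by more than counting error. It cannot tell separate cultures from separate preparations of the same culture. The kit as labelled does not mark strand, and no annotated gene of GENCODE M21's basic set overlapped the span that the TPM table gives for a member; a longer Cx3cr1 transcript of that set does span further genes, among them Xirp1, which did not exceed 0.078 TPM. The main limma fit was also run on simulated data with changes set in advance. That simulation did not cover the alternatives, limma-voom among them, or the promoter search.

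Members and lists were chosen with earlier results of these data known. The genes named were the 7 members, their nearest listed neighbours, and the 3 genes of most similar pattern for members with a difference of at least 1. In each list, up to 6 called genes with an absolute log2 difference of at least 0.5 were named, plus the most abundant. Ccr10, Cxcr3, Cxcr5, C5ar2, Rarres2, Mif, Ccl9, Ccl7 and Ccl12 were named after their values were seen. So were the ligands near 0, the alpha subunit genes and the cell type and RNA quality genes. All 7 members matched RefSeq's promoter table. Some results of single genes are left out of the text.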

Additional observations from a re-analysis of the deposited data

How the results depend on the processing

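For each result, up to 15 alternatives were run: another pseudocount (0.1), no filter, a minimum of 5 TPM, upper-quartile scaling, limma-voom, the deposited log2 values, no trend, the replicate number as a block, subtraction of the median of chromosome 7, and each library left out. Of 89 receptor values so obtained, 84 kept direction and side of the threshold, 5 lost the call and 0 reversed. All 5 were of C5ar1, which ranged from −0.11 to −0.40. Many of these values could not reverse. The filter choices, the trend and the replicate block leave a receptor's difference unchanged, so only its adjusted p could move. The same held for the chromosome 7 subtraction in every receptor but C5ar1. Cx3cr1 ranged from −1.49 (deposited log2 values) to −2.16 (limma-voom), C3ar1 from −0.43 to −0.48, Cxcr4 from 0.27 to 0.40, and Ccrl2 from 0.31 to 0.71. Between 4 and 5 receptors were called in each alternative, and 4700 to 6167 among all genes, with varying numbers tested. With no filter the calls were 4 of 7 receptors and 5263 of 19482 genes. At a minimum of 5 TPM they were 5 of 5 receptors and 5035 of 9075 genes. Ccr1 entered the fit only with no filter (0.03, limma adjusted p = 0.662), and Ccr2 left it at a minimum of 5 TPM. Same-numbered libraries did not deviate together (correlations across genes of −0.01, −0.06 and 0.00), so the numbers were not taken as pairs. With the replicate block 5 of 6 receptors and 5297 of 11257 genes were called.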
